A study of Homo sapiens with 14 samples.

Results

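The ID genes and a group of genes that bone morphogenetic protein (BMP) signals are known to switch on were followed on 14 arrays of MiaPaCa2 cells, a human pancreatic carcinoma line, in starvation or control medium. The 8 genes were ID1, ID2, ID3, ID4, SMAD6, SMAD7, SMAD9 and BAMBI. Each was found by its symbol in the array annotation, and each had 1 transcript cluster (the set of probes that an array of this type reads as one gene). They are 8 of the 18377 genes with a cluster of their own. The genes share a known link to BMP signalling and were chosen with results of these data known, among them the 9 h and 0 h values of ID2 and ID3, so the differences from 0 h are given below as a description and carry no test.

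The cells had been transfected with an siRNA against NUPR1 (siNupr1), RELA (siRelA/p65, here siRelA) or RELB (siRelB), or with a scrambled siRNA as control (siCtrl). RELA and RELB are subunits of NF-kB, a transcription factor of stress and immune responses, and NUPR1 is a small chromatin protein that many stresses induce. In the Nupr1 set of 8 arrays, siNupr1 and siCtrl cells were measured at 0 h and after 3, 6 and 9 h of starvation. The starvation medium was EBSS (Earle's balanced salt solution), without amino acids or growth factors and, per the labels, without glucose, although its usual formula has some. In the NF-kB set of 6 arrays, siRelA, siRelB and siCtrl cells were measured after 9 h in either EBSS or mock medium, whose composition is not stated. The study asked which genes depend on NUPR1, RELA and RELB in starved cells. A single array was run for each group, in 1 cell line, and nothing in the labels ties the arrays to separate cultures. No group thus has a spread between like arrays. The p-values rest only on how far a difference varied from pair to pair across siRNAs or conditions. That variation may be technical or may be a real difference in response. The 0 h arrays are titled with the culture medium DMEM although another field names EBSS for 0 h, and they were taken as unstarved. The siNupr1 array at 9 h carries a title that names another siRNA, while its other fields name siNupr1. The labels list 2 siRNA sequences each for NUPR1 and RELB and do not say which was used on the arrays.

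As a check of the series, siNupr1 cells had less NUPR1 than siCtrl cells (log2 difference -0.87 ± 0.10, SE, limma adjusted p = 1.95e-05), siRelA cells less RELA (-2.49 ± 0.13, limma adjusted p = 2.96e-10) and siRelB cells less RELB (-1.32 ± 0.17, limma adjusted p = 3.62e-05). In addition, siNupr1 cells had less RELB (-0.67 ± 0.12, limma adjusted p = 0.000945) and siRelB cells less NUPR1 (-0.43 ± 0.14, limma adjusted p = 0.0442). The siNupr1 and siRelB differences below thus come with a change in the other's target as well. The median log2 value of an array was 5.67 to 5.84. The keratin genes KRT8 and KRT18 and the vimentin gene VIM averaged 12.79, 13.01 and 12.65, while EPCAM, an epithelial surface marker, averaged 3.56, a dim signal. Of 15 measured markers of leukocytes, fibroblasts, islets, acinar cells and endothelium, 10 lay under the filter on dim genes (a mean of 5.80), at 2.37 to 5.53, among them PTPRC, DCN, LUM, GCG, PRSS1, PECAM1 and VWF. The other 5 lay above it: COL1A2 at 10.23, CD68 at 8.22, COL1A1 at 6.90, CELA3A at 6.45 and CD14 at 5.90. The siCtrl arrays at 9 h in EBSS, 1 per set, correlated at r = 0.966 over 18377 genes, which are not independent replicates, and all differences below were taken within a set.

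BMPs are secreted ligands that bind paired type I and type II receptor kinases. The receptors phosphorylate SMAD1, SMAD5 and SMAD9, which join SMAD4 and enter the nucleus to bind DNA. ID1, ID2 and ID3 are among the most direct targets of this pathway, and they are also induced by serum. The ID proteins have a helix-loop-helix dimerization domain but no DNA-binding region, so that they hold E proteins and related factors off DNA, and they are best known for favouring proliferation over differentiation. SMAD6, SMAD7 and BAMBI are feedback inhibitors that BMP or TGF-beta signals induce. No array here measured BMP signalling itself, and the group is called by its known regulation only.

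The promoters of the 4 genes that fell in EBSS in the NF-kB set (below) are shown because these genes moved together. All 8 genes matched a RefSeq promoter (GRCh38.p14), SMAD7 with 3 start sites, so that 10 windows of 250 bases before a start were searched on both strands. Capitals mark GTCT or its reverse AGAC, the short element that SMAD3 and SMAD4 bind, and GGCGCC, a GC-rich element bound by SMAD1 and SMAD5.
ID1 promoter, chr20:31605039-31605288, plus strand: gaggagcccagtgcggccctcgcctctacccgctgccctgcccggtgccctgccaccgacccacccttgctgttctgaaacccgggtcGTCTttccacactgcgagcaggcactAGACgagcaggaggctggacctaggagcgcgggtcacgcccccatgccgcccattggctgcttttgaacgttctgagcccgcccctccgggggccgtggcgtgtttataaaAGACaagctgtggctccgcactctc
ID2 promoter, chr2:8681806-8682055, plus strand: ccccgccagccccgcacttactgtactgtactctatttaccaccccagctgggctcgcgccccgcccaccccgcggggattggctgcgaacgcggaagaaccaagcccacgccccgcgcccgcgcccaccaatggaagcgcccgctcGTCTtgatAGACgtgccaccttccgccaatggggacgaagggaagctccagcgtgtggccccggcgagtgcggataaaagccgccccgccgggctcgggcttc
ID3 promoter, chr1:23559502-23559751, minus strand: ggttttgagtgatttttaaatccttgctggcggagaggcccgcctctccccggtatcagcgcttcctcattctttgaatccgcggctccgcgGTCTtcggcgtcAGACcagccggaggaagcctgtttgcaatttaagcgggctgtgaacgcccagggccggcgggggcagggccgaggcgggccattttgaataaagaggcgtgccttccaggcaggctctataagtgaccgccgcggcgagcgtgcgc
BAMBI promoter, chr10:28677271-28677520, plus strand: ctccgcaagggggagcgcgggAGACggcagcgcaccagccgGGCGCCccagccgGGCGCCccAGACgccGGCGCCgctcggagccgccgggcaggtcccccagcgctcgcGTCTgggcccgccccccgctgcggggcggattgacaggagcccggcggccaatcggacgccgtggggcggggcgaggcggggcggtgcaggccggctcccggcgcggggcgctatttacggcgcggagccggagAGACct
GTCT occurred 3 times in the ID1 window, 162, 136 and 25 bases before the start. It occurred at 103 and 95 bases in ID2 and at 158 and 146 bases in ID3, as a facing pair (GTCT then AGAC) each time. These letters are common: 77.5% of 35116 RefSeq windows of this length held at least 1 GTCT, and 45.6% held at least 2. GGCGCC was found in BAMBI alone among the 8 genes, 3 times, at 209, 196 and 181 bases, while 16.4% of all windows held it and 0.527% held it at least 3 times. The palindrome GTCTAGAC, in 0.182% of all windows, was present 12 bases before the start in SMAD6, a gene that did not pass the test in any comparison. The BMP-responsive enhancer known from ID1 lies further upstream than these windows reach. The GC content was 66.0% in the ID1 window, 69.2% in ID2, 62.0% in ID3 and 81.2% in BAMBI, against a median of 58.0% over all windows. A match is a run of letters and not a bound site.

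All 8 genes were measured on every array, and levels are given as the deposited log2 values, on which 1 unit is a doubling of signal. A level is compared only with the same gene's level on another array. Within the 8 arrays of the Nupr1 set the ranges were 3.17 for ID2, 2.90 for ID3, 1.44 for ID1, 1.04 for BAMBI, 0.98 for SMAD9, 0.83 for SMAD7, 0.55 for SMAD6 and 0.39 for ID4. Within the 6 arrays of the NF-kB set they were 2.06 for ID3, 2.01 for ID2, 1.65 for BAMBI, 1.35 for ID1, 0.67 for SMAD9, 0.56 for SMAD7, 0.55 for ID4 and 0.15 for SMAD6. ID4 never passed 4.94 and SMAD7 never passed 5.43. Both lay under the filter on dim genes, a mean of 5.80, so 6 of the 8 genes were among the 11026 tested.

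In the Nupr1 set ID2, ID3 and ID1 were much lower after 3 h of EBSS than at 0 h, and ID2 and ID3 stayed low to 9 h. ID2, which encodes an ID protein that also binds the retinoblastoma protein, had 8.68, 6.02, 5.58 and 6.03 at 0, 3, 6 and 9 h in siNupr1 cells, against 8.46, 6.18, 5.51 and 6.06 in siCtrl cells. The 6 starved arrays all lay at least 2 units below both 0 h arrays. Its lowest level was at 6 h with both siRNAs. In mean pair differences from 0 h ID2 was 5.54-fold lower at 3 h, 8.14-fold at 6 h and 5.74-fold at 9 h.

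ID3 had 9.32, 7.63, 7.02 and 6.53 at 0, 3, 6 and 9 h in siNupr1 cells, against 9.23, 7.45, 6.83 and 6.43 in siCtrl cells. Each step in time was lower than the one before with both siRNAs. Its mean difference from 0 h was 3.33-fold lower at 3 h, 5.10-fold at 6 h and 6.95-fold at 9 h. ID2 and ID3 had the lowest and second lowest mean difference of all 11026 tested genes at 3 h and at 6 h, and at 9 h the order was ID3, then ID2. Since values of this kind were in view when the genes were chosen, these ranks describe them and support nothing.

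ID1, the best-studied BMP target of the family, followed another course. It had 9.25, 8.03, 8.58 and 8.49 at 0, 3, 6 and 9 h in siNupr1 cells, against 9.22, 7.81, 8.42 and 8.59 in siCtrl cells. Its lowest level was at 3 h with both siRNAs, 2.49-fold below 0 h, and at 6 and 9 h it was 1.66-fold and 1.62-fold below 0 h. The gene had the sixth lowest mean difference at 3 h and rank 378 from the lowest at 9 h.

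The SMAD genes and BAMBI differed from 0 h by less than ID2 and ID3 did at each time, while at 9 h the mean difference of SMAD9, -0.71, was close to that of ID1, -0.69. BAMBI, a pseudoreceptor that lacks a kinase domain and blocks receptor pairing, had 6.23, 5.40, 5.19 and 5.59 at 0, 3, 6 and 9 h in siNupr1 cells, against 5.88, 5.61, 5.60 and 5.30 in siCtrl cells, and both 0 h arrays were above all 6 starved ones. SMAD9, a receptor-regulated SMAD that is itself a BMP target, had 6.22, 5.93, 5.98 and 5.77 with siNupr1, against 6.57, 6.09, 5.88 and 5.60 with siCtrl. It too was highest at 0 h with each siRNA. SMAD6, the inhibitory SMAD that acts mainly on the BMP branch, had 6.51, 6.07, 6.08 and 6.12 with siNupr1, against 6.37, 6.16, 6.05 and 5.96 with siCtrl. Its differences from 0 h were between -0.43 and -0.20. SMAD7, the inhibitory SMAD of both branches, had 5.43, 5.11, 4.93 and 4.60 with siNupr1, against 4.83, 5.03, 5.23 and 4.78 with siCtrl, so the 2 siRNAs did not share a course. ID4 stayed between 4.43 and 4.82.

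**Figure D1:**
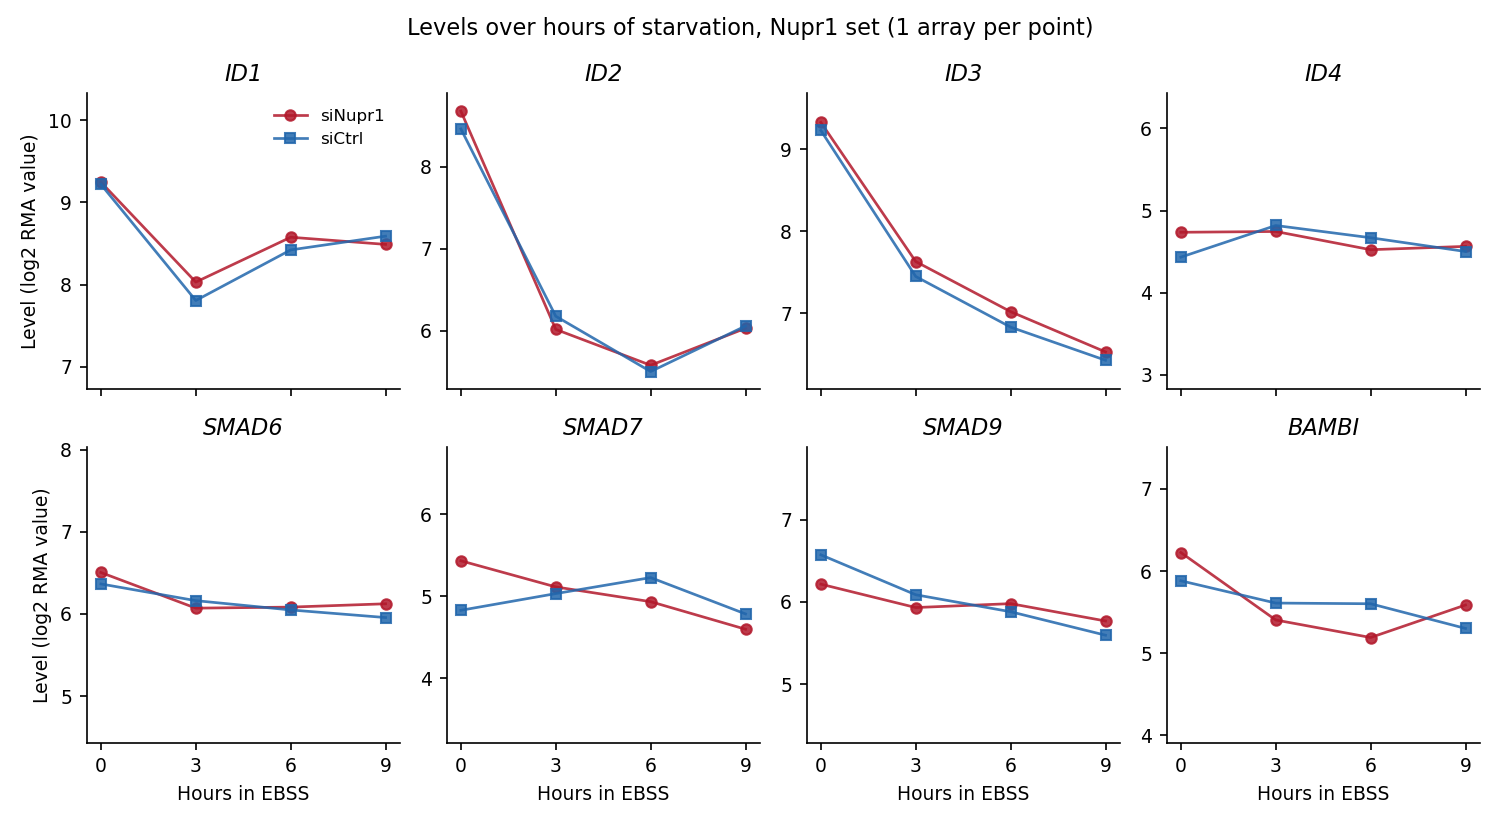
Levels of the 8 genes (log2 RMA value, y axis) at 0, 3, 6 and 9 h in EBSS (x axis) in siNupr1 cells (red circles) and siCtrl cells (blue squares), with 1 array per point and no error bars. Every panel spans the same number of log2 units. ID2 and ID3 drop by 3 h and stay low, ID1 is lowest at 3 h and higher at 6 h, and the SMAD genes move less than ID2 and ID3.

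The count of genes at least 2-fold lower in both pairs was 3 of 8 at 3 h (ID1, ID2 and ID3), when 0.2% of all tested genes met that mark. It was 2 of 8 at 6 h (ID2 and ID3) beside 0.481% of all tested genes, and the same 2 at 9 h beside 0.617%. The median mean difference of the 8 genes was -0.47, -0.56 and -0.65 at 3, 6 and 9 h, and that of all tested genes was -0.03, -0.01 and -0.04. The 3 times share the same 0 h arrays and are not independent of one another. No more can be read from these counts, because the rule for the 8 genes used this contrast. In RNA of whole cultures, fewer cells of a type and less RNA per cell cannot be told apart.

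The 6 h and 3 h arrays, which include neither the 0 h nor the 9 h arrays, allowed a test of the later course. They belong to the Nupr1 set, from which the values known to be in view came. The differences of 3 h and 6 h from 0 h were among the values in view when the genes were chosen. This test uses the same 3 h and 6 h arrays, so it is not independent of that choice. ID1 was higher at 6 h than at 3 h by 0.58 ± 0.12 (SE, n = 2 pairs, limma adjusted p = 0.0459), with 0.55 in siNupr1 and 0.62 in siCtrl cells. ID3 differed by -0.61 ± 0.12 (n = 2 pairs, limma adjusted p = 0.0386), with -0.61 in siNupr1 and -0.62 in siCtrl cells. Between these times the genes thus moved in opposite directions in both pairs. ID2 differed by -0.56 ± 0.22 without passing the test (limma adjusted p = 0.362), BAMBI by -0.11 ± 0.17, SMAD6 by -0.05 ± 0.13 and SMAD9 by -0.08 ± 0.18. Over all genes 32 of 11026 were called, 0.29%, beside 2 of the 6 tested members. That background was itself unsteady, with 656 genes called with array weights and 0 to 75 when single arrays were left out. Both calls sat close to the threshold, ID1 losing its call in 16 and ID3 in 8 of 23 alternative settings, with adjusted p up to 0.885 and 0.580. Leaving out any 1 of the 4 arrays at 3 and 6 h ended both calls.

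In the NF-kB set ID1, ID2, ID3 and BAMBI fell in EBSS and SMAD6 and SMAD9 did not pass the test. The values known to have been in view when the genes were chosen come from the Nupr1 set, but whether these arrays also bore on the choice is not recorded, so the tests here may not be independent of it. ID3 had 7.95, 7.30 and 7.24 in siRelA, siRelB and siCtrl cells in EBSS, against 9.30, 8.74 and 8.73 in mock. Every EBSS array was below every mock array. The group means were 7.50 ± 0.39 in EBSS and 8.92 ± 0.32 in mock (SD, n = 3 arrays each), and the difference was -1.43 ± 0.09 (SE, n = 3 pairs, limma adjusted p = 1.27e-09), a 2.69-fold lower level.

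BAMBI had 6.61, 6.30 and 6.57 in siRelA, siRelB and siCtrl cells in EBSS, against 7.95, 7.38 and 7.68 in mock. The groups did not overlap, with means of 6.49 ± 0.17 in EBSS and 7.67 ± 0.28 in mock (SD, n = 3 arrays each). It fell by 1.18 ± 0.14 (SE, n = 3 pairs, limma adjusted p = 6.32e-07), or 2.26-fold. ID1 had 8.57, 8.90 and 8.81 in EBSS, against 9.81, 9.79 and 9.92 in mock, in the same order of siRNAs. The groups again did not overlap, with means of 8.76 ± 0.17 in EBSS and 9.84 ± 0.07 in mock (SD, n = 3 arrays each), and the difference was -1.08 ± 0.10 (SE, n = 3 pairs, limma adjusted p = 3.84e-08), or 2.12-fold.

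ID2 was the uneven member. It had 5.85, 5.83 and 5.54 in siRelA, siRelB and siCtrl cells in EBSS, against 7.55, 6.15 and 7.29 in mock. All EBSS arrays lay below all mock arrays, but the siRelB mock array stood more than 1 unit under the other mock arrays. The pair differences were -1.70 with siRelA, -0.32 with siRelB and -1.75 with siCtrl, and the fitted one was -1.26 ± 0.18 (SE, n = 3 pairs, limma adjusted p = 1.21e-05). The mock SD of 0.74 was the largest of the 4 genes, beside an EBSS SD of 0.18.

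SMAD6 had 6.24, 6.09 and 6.24 in EBSS, against 6.24, 6.14 and 6.16 in mock, again in the order siRelA, siRelB and siCtrl. Its difference was 0.01 with a 95% interval of -0.22 to 0.23 (limma adjusted p = 0.956). For SMAD9 the levels were 5.84, 5.43 and 6.09 in EBSS, against 5.94, 5.92 and 5.72 in mock, and its pairs disagreed in sign, at -0.10, -0.49 and 0.37. The fitted difference was -0.07 with an interval of -0.38 to 0.23 (limma adjusted p = 0.668). The dim genes ID4 and SMAD7 were untested here. ID4 was 0.42, 0.30 and 0.39 higher in EBSS in the siRelA, siRelB and siCtrl pairs, and SMAD7 was 0.26, 0.19 and 0.33 higher. With no filter on dim genes ID4 would be called as higher, at 0.37 ± 0.12 (limma adjusted p = 0.0248).

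**Figure D2:**
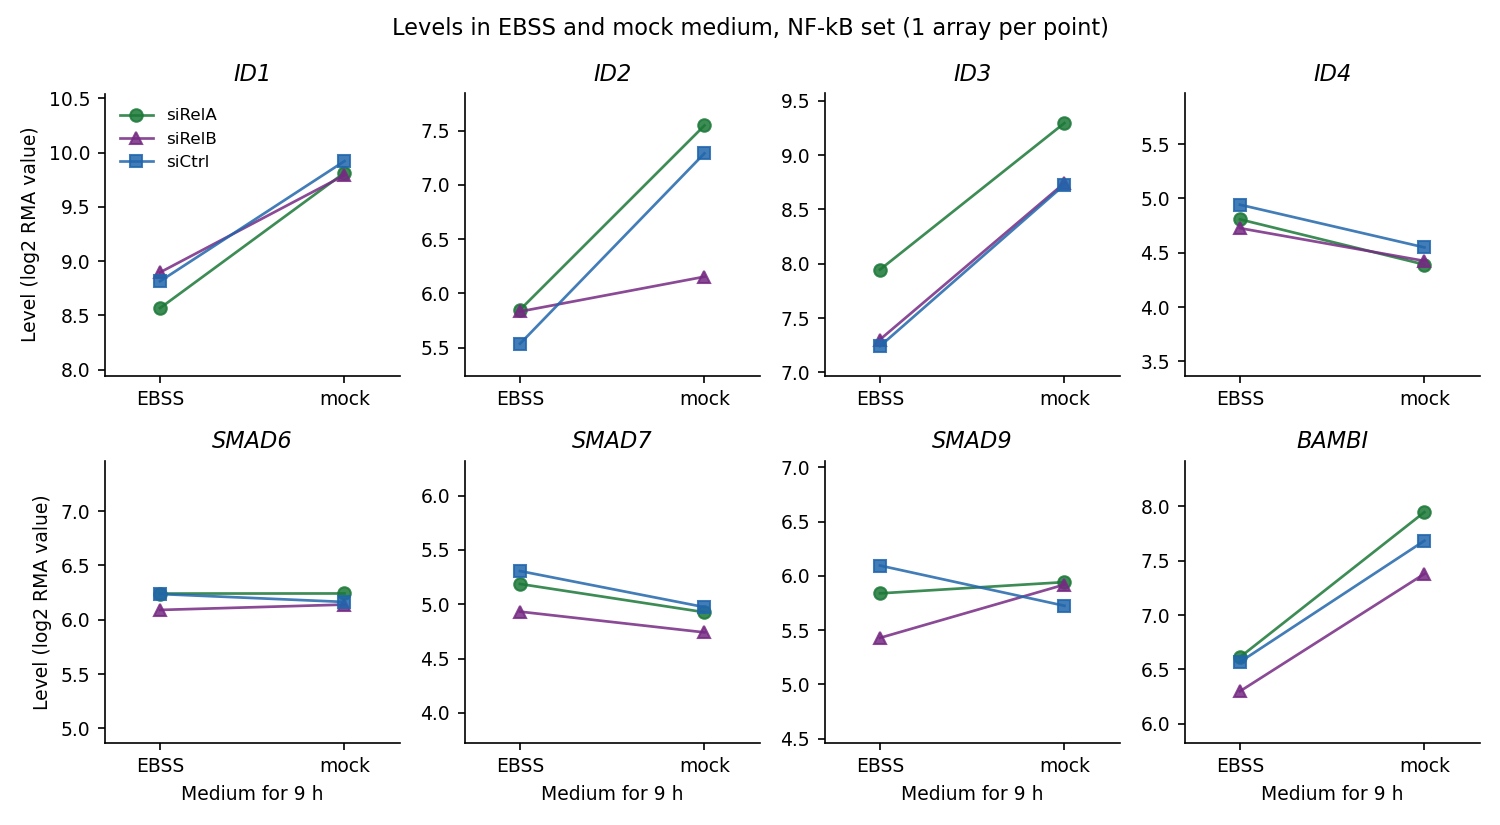
Levels of the 8 genes (log2 RMA value, y axis) after 9 h in EBSS or mock medium (x axis) in siRelA (green circles), siRelB (purple triangles) and siCtrl cells (blue squares), with 1 array per point, lines joining the pair of each siRNA, and no error bars. Every panel spans the same number of log2 units. ID1, ID2, ID3 and BAMBI are lower in EBSS in all 3 pairs, and the ID2 line of siRelB cells is the flattest of these.

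In all, 4 of the 6 tested genes fell, when 29.3% of all tested genes fell in this comparison (2489 rose and 3233 fell, against 1539 and 3355 after centring each array on its median and 3202 and 3069 after quantile normalization). In the same 4 genes all EBSS arrays lay below all mock arrays, which held for 22.7% of tested genes. ID3 and BAMBI were at least 2-fold lower in every one of the 3 pairs, a mark that 2.89% of tested genes met. The medians were -1.13 over the 6 tested genes and 0.05 over all tested genes. The 4 calls kept their direction and passed the threshold in all 23 alternative settings, where ID2 ranged from -1.73 to -1.01 and the other 3 from -1.60 to -0.98. Many of these settings, such as leaving out an array of the Nupr1 set, could not change the fitted differences, only their SE and adjusted p. Counted from the lowest difference, ID3 ranked 151, ID2 250, BAMBI 314 and ID1 425 of 11026. Levels of the same condition differed between the sets: siCtrl cells at 9 h in EBSS had 6.57 of BAMBI in the NF-kB set and 5.30 in the Nupr1 set, and 7.24 and 6.43 of ID3.

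Genomic span moved with the EBSS differences. Genes at least 2-fold lower in EBSS than in mock had a median span of 67.3 kb, beside 24.7 kb over all tested genes with a span. The falling members were short, at 1.22 kb for ID1, 1.58 kb for ID3, 2.41 kb for ID2 and 5.41 kb for BAMBI, while SMAD9 and SMAD6 span 76.0 and 80.6 kb. With the trend on span removed from each array, ID1, ID2, ID3 and BAMBI were still called lower.

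The wider pathway was read from 13 lists of BMP and TGF-beta components, targets and helix-loop-helix partners, which held 147 further genes, 139 of them measured and 89 tested. In EBSS against mock 31 rose (34.8%) and 15 fell (16.9%), when 22.6% of all tested genes rose and 29.3% fell, and the counts of each list below stand beside those shares. The median difference was 0.21, beside 0.05 over all tested genes. With the span trend removed 18 rose and 14 fell, beside 1472 and 3386 over all genes, where the main fit had 2489 and 3233. Without a siRelA array 17 rose, and without a siRelB array 20 rose. Over all genes the count that rose also dropped without those arrays. None of the 139 was at least 2-fold lower or higher than at 0 h in both pairs at 9 h.

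Among the ligands few changed. Of 5 tested BMP ligands only GDF7 rose, by 0.35 ± 0.11 (limma adjusted p = 0.00949), and the other 4 did not pass, BMP2 among them at 0.12. Of 5 TGF-beta and activin ligands TGFB1 rose by 0.44 ± 0.14 and INHBB by 0.34 ± 0.10. The receptors showed larger falls. BMPR2, the type II receptor of BMPs, fell by 1.04 ± 0.10 (n = 3 pairs, limma adjusted p = 8.90e-08), with -0.99, -1.03 and -1.09 in the siRelA, siRelB and siCtrl pairs. In the Nupr1 set its 9 h level differed from that at 0 h by 0.16 with siNupr1 and by -0.21 with siCtrl, so the pairs did not share a sign at that time. It was lower than at 0 h in both pairs at 3 h, at -0.31 with siNupr1 and -0.44 with siCtrl, and at 6 h, at -0.14 and -0.35 in the same order. TGFBR1, the type I receptor of TGF-beta, fell by 0.32 ± 0.12, and ACVR2B, an activin type II receptor, rose by 0.35 ± 0.12. In the Nupr1 set TGFBR1 was instead higher at 9 h than at 0 h, by 0.25 with siNupr1 and 0.64 with siCtrl. ACVR2B was higher there too, by 0.38 and 0.75 in the same order. The other 2 of 5 tested receptors did not pass. TGFBR3 (betaglycan), a co-receptor that presents ligand, fell by 1.25 ± 0.11 (limma adjusted p = 1.47e-08), the only 1 of 5 tested co-receptors to pass.

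Secreted antagonists and SMAD proteins changed in both directions. NOG (noggin), which traps BMPs, rose by 0.53 ± 0.10 (limma adjusted p = 0.000167), FSTL3 by 0.50 ± 0.10 and SOST by 0.36 ± 0.14, while TWSG1 (twisted gastrulation), a BMP-binding modulator, fell by 0.90 ± 0.10 (limma adjusted p = 2.81e-07), and the other 4 of 8 did not pass. The BMP-regulated SMAD5 fell by 0.63 ± 0.11 and SMAD1 fell by 0.41 ± 0.10, and SMAD3, of the TGF-beta branch, rose by 0.46 ± 0.09. The other 2 of these 5 SMAD genes did not pass. Of 22 tested intracellular regulators 5 rose and 8 fell. The largest fall was that of ZFYVE16 (endofin), an endosomal SMAD anchor, with -1.62 ± 0.15, followed by the SMAD deubiquitinases USP15 at -1.08 ± 0.17 and USP9X at -0.78 ± 0.09, with the SMAD4 ubiquitin ligase TRIM33 at -0.80 ± 0.11 between them. CTDSP2, a phosphatase of the SMAD linker, rose by 0.87 ± 0.11. The 9 h against 0 h pairs of the Nupr1 set did not share all of this. With siNupr1 and siCtrl, ZFYVE16 differed there by 0.57 and 0.07, USP9X by 0.60 and 0.33 and TRIM33 by 0.27 and 0.01. USP15 differed by 0.62 and -0.31. TWSG1, SMAD5 and SMAD1 were lower in both pairs, and CTDSP2 was higher in both.

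Among the tested other targets of the pathways, none was called lower in EBSS by limma, and the lowest difference was -0.07 ± 0.11. Of 5 further SMAD1/5 targets 2 rose (MSX1 by 0.28 ± 0.10 and RUNX2 by 0.29 ± 0.11) and 0 fell by the limma test. Of 10 tested SMAD2/3 targets 6 rose and 0 fell, led by JUNB with 0.96 ± 0.12, TGFB1I1 with 0.61 ± 0.11 and CCN2 with 0.44 ± 0.10. JUNB is also an immediate early gene that stress and serum induce. Of the E proteins that ID proteins bind, TCF12 fell by 0.54 ± 0.09 (limma adjusted p = 8.53e-05) and TCF3 differed by 0.27 ± 0.12 without passing. Of 7 tissue-restricted bHLH genes 3 rose by 0.29 to 0.30 (TWIST1, LYL1 and ASCL2), and of 8 tested HES, HEY and BHLHE repressors 4 rose. BHLHE40, a repressor with a role in the clock and in hypoxia, rose most, by 0.63 ± 0.10 (limma adjusted p = 2.58e-05), and was higher than at 0 h in both pairs at 3 h, by 1.12 with siNupr1 and 1.11 with siCtrl. The cell cycle inhibitor genes CDKN1A, CDKN1C, CDKN2A and CDKN2B, of which several are reported to respond to ID or E proteins, rose by 0.62, 0.34, 0.36 and 0.35, all 4 that were tested of the 6 on their list. MiaPaCa2 is known to lack CDKN2A through a homozygous deletion, so the rise of 0.36 ± 0.11 at CDKN2A (limma adjusted p = 0.0113) was measured in a gene that this line should not express. Of the 31 list genes that rose, 16 rose by no more than CDKN2A did, a count that includes CDKN2A itself. What moves such signals was not tested. The 9 h against 0 h pairs of the Nupr1 set did not share all of the changes above. With siNupr1 and siCtrl, CDKN1C differed there by 0.12 and -0.04, CDKN2A by -0.001 and -0.02 and CDKN2B by 0.09 and -0.19. CCN2 differed by 0.09 and 0.04 and TCF12 by 0.01 and 0.07. MSX1, LYL1 and ASCL2 had pairs of opposite sign, and TWIST1 was lower in both. CDKN1A, JUNB, TGFB1I1, RUNX2 and BHLHE40 were higher in both.

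**Figure D3:**
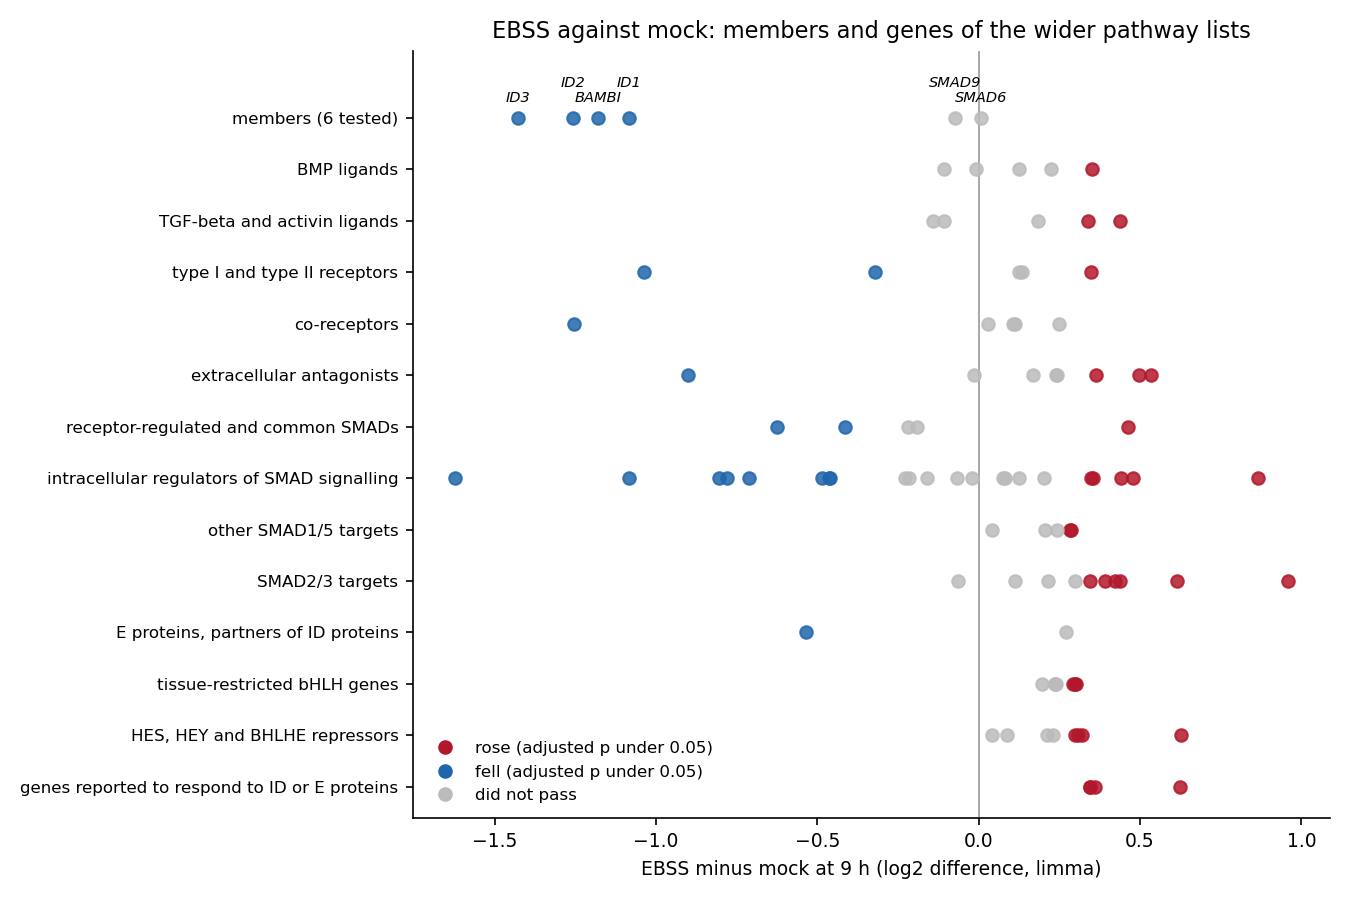
Fitted log2 differences of EBSS minus mock at 9 h (x axis, limma, 3 pairs) of the 6 tested members (top row, named) and of the tested genes of 13 pathway lists (1 row each), with 1 point per gene, red where it rose, blue where it fell and grey where it did not pass. Error bars are left out. ID3, ID2, BAMBI and ID1 lie between -1.43 and -1.08, and ID1, the rightmost of them, lies left of all list genes except ZFYVE16, TGFBR3 and USP15.

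With NUPR1 silenced, none of the 6 tested members was called for siNupr1 against siCtrl by limma, and 0 of 6 had an unadjusted p under 0.05, when 18.4% of all tested genes were called. The differences over 4 pairs were 0.14 ± 0.08 for ID3 (limma adjusted p = 0.249), 0.08 ± 0.09 for ID1, 0.06 ± 0.09 for SMAD6, 0.03 ± 0.16 for ID2, 0.00 ± 0.12 for BAMBI and -0.06 ± 0.12 for SMAD9. Their 95% intervals ran at most from -0.32 to 0.36. ID3 was higher in siNupr1 than in siCtrl cells at all 4 times. The slope of the siNupr1 difference on hours was called for 0 of 6 members and for 0 of all 11026 genes by limma (0%), of which 0 members and 2149 genes had an unadjusted p under 0.05.

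With siRelA ID3 was higher than with siCtrl, by 0.64 ± 0.12 (SE, n = 2 pairs, limma adjusted p = 0.000547). Its levels with siRelA were 7.95 in EBSS and 9.30 in mock, against 7.24 and 8.73 with siCtrl, a pair difference of 0.71 in EBSS and 0.57 in mock. The call held in all 23 alternative settings, and its adjusted p reached at most 0.0195. The other 5 tested members were not called, with 0.28 ± 0.22 for ID2, 0.15 ± 0.17 for BAMBI, 0.04 ± 0.13 for SMAD6, -0.02 ± 0.18 for SMAD9 and -0.18 ± 0.12 for ID1. Since 21.5% of all tested genes were called with siRelA, 1 call among 6 members is near the background and no result about the group.

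With siRelB 0 of 6 members were called by limma, 0 had an unadjusted p under 0.05, and 16.1% of all tested genes were called. ID2 differed from siCtrl by -0.42 ± 0.22 (n = 2 pairs, limma adjusted p = 0.239), made of 0.30 in EBSS and -1.14 in mock. Without the siRelB EBSS array the difference of ID2 was called, at -1.12 (limma adjusted p = 0.00105). BAMBI was lower in both pairs, at -0.29 ± 0.17, and ID3 differed by 0.04 ± 0.12.

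Against siRelA, ID3 in siRelB cells differed by -0.60 ± 0.12 (n = 2 pairs, limma adjusted p = 0.00206). The EBSS pair differed by -0.64 and the mock pair by -0.55. The siRelA arrays are the same ones as above, so this is not a further observation of ID3. ID2 differed by -0.70 ± 0.22 (limma adjusted p = 0.0517), nearly all of it in mock at -1.39 beside -0.02 in EBSS, and BAMBI by -0.44 ± 0.17 (limma adjusted p = 0.100). In this comparison 10.1% of all tested genes were called, and 1 of 6 members.

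A fit with a difference of the siRNA effect between EBSS and mock was added after the ID2 values had been seen. In it the spread came from the Nupr1 set, since the NF-kB set had no arrays left over. For siRelB, ID2 had an EBSS minus mock difference of 1.43 ± 0.28, the highest of 11026 genes, with a limma adjusted p of 0.703. SMAD9 had -0.86 ± 0.32, which did not pass either. By limma 0 genes were called for siRelB (0%), 401 genes and 2 members having an unadjusted p under 0.05. For siRelA 4 genes (0.0363%) and 0 members were called, with 0 members at an unadjusted p under 0.05. The uneven ID2 response thus rests on single arrays and did not pass the correction.

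**Figure D4:**
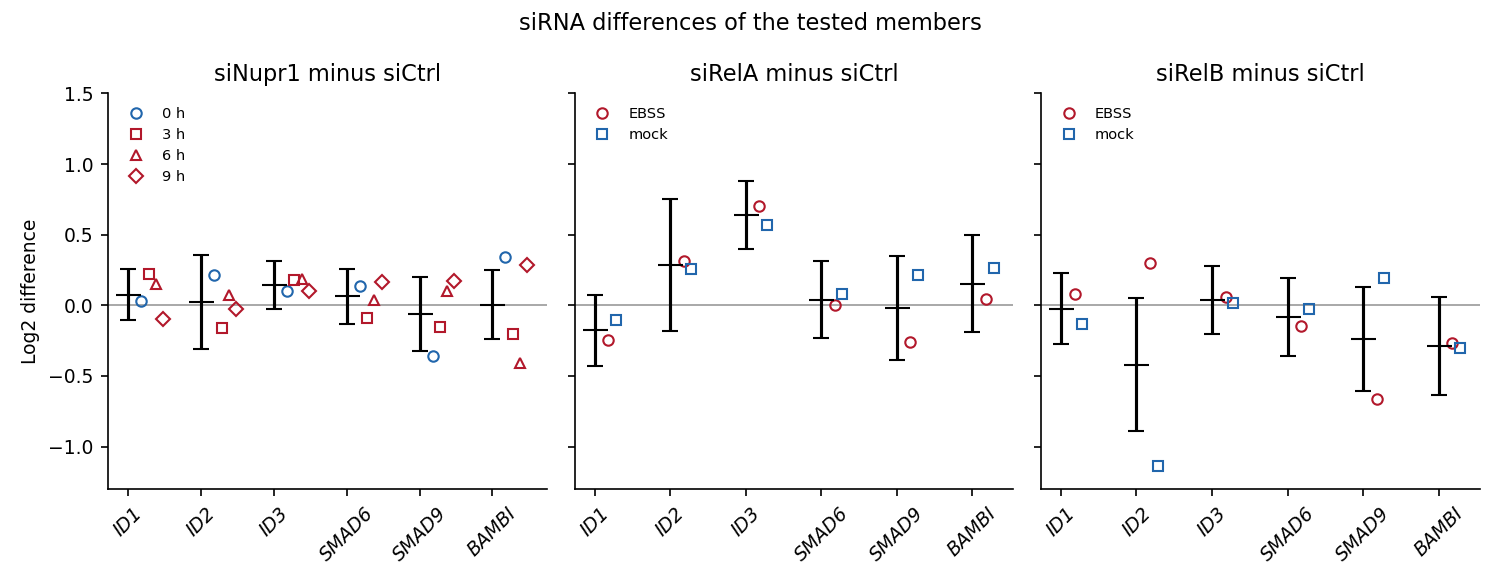
Log2 differences (y axis) of siNupr1, siRelA and siRelB minus siCtrl for the 6 tested members (x axis). Black bars are the fitted difference with its 95% interval, and open symbols are the single pairs of arrays, red in EBSS and blue at 0 h or in mock. ID3 with siRelA is the only interval off 0, and the ID2 pairs of siRelB stand far apart, at 0.30 in EBSS and -1.14 in mock.

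The members were also compared in pattern. Within the NF-kB set ID3 and BAMBI correlated at r = 0.958 and ID2 and ID3 at 0.866 over 6 arrays, and within the Nupr1 set ID2 and ID3 correlated at 0.927, ID2 and BAMBI at 0.862 and ID1 and ID3 at 0.620 over 8 arrays. The arrays of a set share their split into starved and unstarved ones, and the values are descriptions. Against the mean course of ID1, ID2 and ID3 over 14 arrays (each set centred, each gene standardized), the tested genes outside the group with the highest r were TIMM21, a mitochondrial import subunit, at 0.987, ALDH1B1, a mitochondrial aldehyde dehydrogenase, at 0.976, MCM4, a subunit of the replicative helicase, at 0.963, UXS1 at 0.959 and AMZ2 at 0.951. In EBSS against mock TIMM21 fell by 0.93 ± 0.10 (limma adjusted p = 2.21e-07) and MCM4 fell by 0.69 ± 0.09 (limma adjusted p = 5.00e-06). The lowest r were those of FLCN (folliculin) at -0.962, the stress gene DDIT3 (CHOP) at -0.959 and KLHL24 at -0.950. DDIT3 was higher in EBSS than in mock by 1.85 ± 0.16 (limma adjusted p = 1.53e-08). BAMBI had r = 0.835 with this course, SMAD6 0.714 and SMAD9 0.572, all 3 below the 5 highest genes. ID1 at 0.881 and ID3 at 0.936, which are part of the mean course, were also below those 5, and ID2 had 0.960.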

How the data were processed

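Total RNA of MiaPaCa2 cells was measured on 14 whole-transcript Affymetrix arrays. The deposited values are log2 values made by robust multi-array average (RMA), per the submitters' processing notes, which also name limma without a design. For the RMA version and genome build the sources used here give nothing. The table held 28869 transcript clusters and 0 missing values. Of these, 19310 had 1 symbol, 1752 several and 7807 none in the array annotation, which gave 18377 genes (brightest cluster per gene), and the dimmest 40% by mean over the arrays were not tested. A joint limma model (R 4.3.3, limma 3.58.1, lmFit and eBayes with intensity trend) of set, siRNA and condition had 9 columns and 5 residual degrees of freedom, 19.6 after moderation. The SE of a difference came from this joint fit, whose residual is the disagreement between pairs that the model treats as alike. The n gives the pairs behind the difference. A gene was called where its p, adjusted over 11026 genes after Benjamini and Hochberg, was under 0.05. The fit was run on simulated data with independent noise and no siRNA effect that varied with condition. That simulation could not show how unlike siRNA responses or shared array effects alter the p-values. Precision is limited by the number of arrays, since every pair is of single arrays. Groups came from the labels. The 8 genes, the pathway lists, the comparisons and the named genes (all members, list genes past the threshold in EBSS against mock or among the 3 per list with the largest such difference, and the genes most and least like ID1 to ID3) were chosen with earlier results of these data known. Alternatives were the filter, scaling, moderation, array weights, cluster choice, the genomic span trend, single sets and single arrays left out. Promoters and genomic spans are RefSeq's (GRCh38.p14).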

Additional observations from a re-analysis of the deposited data

How the results depend on the processing

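The 4 falls in EBSS against mock, the siRelA call of ID3, the siRelB against siRelA call of ID3 and the 0 calls for siNupr1 held in all 23 alternatives. Alternatives that leave a fitted difference as it was, such as leaving out an array of the other set, check only its SE and adjusted p. For 6 h against 3 h the 2 members called became 0 with no filter, with quantile normalization, with median centring and in the Nupr1 set alone, 1 without the intensity trend and 1 with the span trend removed, and 0 to 2 when single arrays were left out. The siRelB count of 0 was 0 to 1 when single arrays were left out, the 1 being ID2 without the siRelB EBSS array. For siRelB against siRelA the count of 1 was 2 in the NF-kB set alone, where BAMBI had an adjusted p of 0.0303, and 1 to 2 when single arrays were left out. The second gene was then ID2, with an adjusted p of 0.0305 and 0.0313 without the siCtrl EBSS and mock arrays, 0.0400 without the siRelA EBSS array, 0.000126 without the siRelB EBSS array, and 0.0317 and 0.0322 without the siCtrl and siNupr1 0 h arrays. Pathway genes that rose in EBSS numbered 31, 18 with the span trend removed, and 17 to 36 when single arrays were left out. Over all genes 2489 rose and 3233 fell, against 1539 and 3355 with median centring, 1472 and 3386 with the span trend removed, and 3202 and 3069 with quantile normalization, where more genes rose than fell. With single arrays left out 1514 to 2895 rose. The counts at least 2-fold below 0 h were the same under every alternative run (quantile normalization, median centring, mean of clusters, span trend). Where leaving out an array leaves 1 in an arm, that array is assumed to vary like the others. A fit with a replicate block was not possible because each group is 1 array, so no replicate numbers are shared. Arrays were matched by siRNA, medium or time through the terms of the joint model. Low signal limits ID4 and SMAD7, which were not tested. It also limits BAMBI in the Nupr1 set and ID2 in EBSS, where levels lay near or under the filter mean.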

Other observations

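Of the 89 tested list genes 20 (22.5%) were called for siNupr1, 11 (12.4%) for siRelA and 14 (15.7%) for siRelB against siCtrl, beside 18.4%, 21.5% and 16.1% of all tested genes, so these counts are near or below the background and no result about the lists. That comparison pools rises and falls. With siNupr1 9 rose and 11 fell, beside 1087 and 946 of all 11026 tested genes. For siRelA the counts were 8 and 3, beside 1116 and 1255, and for siRelB 2 and 12, beside 836 and 943. The siRelA and siRelB list calls were thus less even in direction than those of all genes, a difference that was not tested. With siNupr1 the BMP modulator TWSG1 fell by 0.53 ± 0.08 (n = 4 pairs, limma adjusted p = 0.000319), and the SMAD anchor ZFYVE16 fell by 0.73 ± 0.13 (limma adjusted p = 0.000867). TRIM33 at -0.46 ± 0.10, TGFBR1 at -0.39 ± 0.10 and SMAD5 at -0.31 ± 0.09 were also called lower. TGFB1 rose by 0.41 ± 0.12 and the cell cycle inhibitor CDKN1A by 0.35 ± 0.09.

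With siRelA the co-receptor TGFBR3 rose by 0.59 ± 0.13 (n = 2 pairs, limma adjusted p = 0.00279), the SMAD corepressor SKI by 0.65 ± 0.14 (limma adjusted p = 0.00291) and BHLHE40 by 0.53 ± 0.12, while USP15 fell by 0.82 ± 0.21. With siRelB JUNB fell by 0.67 ± 0.15 (n = 2 pairs, limma adjusted p = 0.00463), and TGFBR1 at -0.55 ± 0.15, SMAD5 at -0.47 ± 0.13 and BMPR2 at -0.39 ± 0.12 (limma adjusted p = 0.0361) were also called lower. The 2 that rose with siRelB were TCF3 and the SMAD phosphatase gene CTDSPL, at 0.57 for CTDSPL. In all, 3 list genes were called with all 3 siRNAs. The endosomal SMAD anchor ZFYVE16 was lower, at -0.73 with siNupr1, -0.62 with siRelA and -0.57 with siRelB, and so was the SMAD ubiquitin ligase SMURF2, at -0.43, -0.35 and -0.61. TCF3, an E protein that ID proteins bind, was higher, by 0.38, 0.72 and 0.58. CTDSPL and SMURF2 fall outside the rule for named genes and were picked after their values were seen. The siRelA and siRelB differences share the siCtrl arrays, so their calls are not independent.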
